A study of Mus musculus with 10 samples.

Results

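Nucleoporins, the proteins that build the nuclear pore, and the transport receptors that carry cargo through it were followed at the RNA level in mouse naive CD4 T cells. The members were taken by name from the protein-coding genes of the annotation, as symbols beginning with Nup and a digit, Kpna or Kpnb, Ipo and a digit, Xpo, or Tnpo. This gave 44 genes of 45321 genes in the tables, of which 21647 were protein-coding. They comprised 21 pore proteins, 6 importin alpha genes, 11 genes of the importin beta family with the transportins, and 6 exportins. The filter on low counts kept 42 of them, and 14417 genes were tested in all. Kpna7, an importin alpha gene with 11 estimated counts over all libraries, and Nup62cl, a relative of Nup62 with 48, did not pass it.

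Splenic T cells of C57BL/6 mice were sorted by their surface markers CD4+, CD62L+ and CD69-, a gate that selects helper T cells that have not recently met antigen. A 1 h exposure to Compound 10 at 12.5 µM, or to DMSO as vehicle, came first. PMA at 10 nM with ionomycin at 1 µM then stimulated some of the cells for 2 h, and the others stayed unstimulated. PMA, a phorbol ester, and ionomycin, a calcium ionophore, activate T cells without engaging the antigen receptor, which limits the stimulated groups as a model of antigen encounter. The groups were Compound 10 stimulated (n = 3), vehicle stimulated (n = 2), Compound 10 unstimulated (n = 2) and vehicle unstimulated (n = 3). Compound 10 is, by the series' design text, an NFAT:AP-1 inhibitor, where NFAT is a calcium-dependent transcription factor that binds DNA together with Fos and Jun proteins (AP-1). The labels do not say whether libraries of a group came from separate mice or cultures, so the p-values measure the spread between these libraries, which may be technical.

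As background, small molecules diffuse through the nuclear pore, whereas most proteins and RNAs are carried by receptors that bind the pore's flexible FG repeats. Importin alpha recognises the classical nuclear localisation signal and is itself carried by importin beta, while the other importins and the transportins bind their cargo directly. The GTPase Ran, loaded with GTP in the nucleus, releases import cargo and holds export cargo on the exportins. In T cells NFAT is a well-known cargo in both directions, since calcium signalling sends it into the nucleus and its rephosphorylation sends it out.

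Estimated counts over all transcripts ranged between 10694591 and 33486259 per library, and the members took 0.206% to 0.400% of the counts matched to genes. The summed level of 10 T cell identity genes, in CPM (counts scaled to a common library size), was 2581 to 2992 in Compound 10 stimulated and 2817 to 3143 in vehicle stimulated libraries, and 2554 to 3028 in Compound 10 unstimulated and 2191 to 2322 in vehicle unstimulated libraries, which did not overlap. The 5 naive T cell markers summed to 1445 to 1488 CPM in Compound 10 stimulated and 1029 to 1132 CPM in vehicle stimulated libraries, and to 2072 to 2414 CPM in Compound 10 unstimulated and 2046 to 2423 CPM in vehicle unstimulated libraries. Markers of B cells summed to 31.3 to 68.8 CPM, and those of NK cells to at most 6.87 CPM with Ncr1 at 0. The 2 CD8 T cell markers summed to 1.99 to 6.14 CPM in Compound 10 stimulated and 7.66 to 8.18 CPM in vehicle stimulated libraries, and in unstimulated cells to 2.89 to 7.34 CPM with Compound 10 and 4.98 to 8.61 CPM with vehicle. The 7 myeloid markers were lower with Compound 10 in both states, without overlap: they summed to 1.76 to 3.94 CPM in Compound 10 stimulated and 4.14 to 7.01 CPM in vehicle stimulated libraries, and to 10.5 to 11.6 CPM in Compound 10 unstimulated and 17.4 to 31.7 CPM in vehicle unstimulated libraries. The 4 regulatory T cell markers, which include the activation genes Il2ra and Ctla4, summed to 39.4 to 68.6 CPM in Compound 10 stimulated libraries and 126 to 165 CPM in vehicle stimulated libraries. The part of these markers in the results was not tested. In bulk RNA, fewer cells that express a gene and less of its RNA per cell cannot be told apart. All pairs of libraries within a group differed by more than sampling noise, with a lowest chi-square per degree of freedom of 14.8, and the widest pair, at 120.3, was replicates 1 and 3 of vehicle unstimulated cells. Index numbers kept with the libraries form 3 runs of consecutive numbers, which no label calls batches. The third run holds replicate 3 of vehicle unstimulated, replicate 2 of Compound 10 unstimulated and replicate 3 of Compound 10 stimulated cells, and no vehicle stimulated library.

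Per transcript length, Kpna2 was the most abundant member in each of the 4 groups. Its level, in TPM (a unit scaled by transcript length) summed over transcripts, averaged 169.6 ± 11.2 in Compound 10 stimulated (SD, n = 3) and 392 ± 27.7 in vehicle stimulated cells (SD, n = 2). In unstimulated cells it averaged 151 ± 7.96 TPM with Compound 10 (SD, n = 2) and 238 ± 19.2 TPM with vehicle (SD, n = 3). Kpna1 came next with Compound 10 and in vehicle stimulated cells, at 114 ± 15.8 and 122 ± 5.79 TPM in the Compound 10 stimulated and vehicle stimulated groups. In vehicle unstimulated cells the places after Kpna2 fell to Xpo6 (136 ± 29.1 TPM), Nup88 and Kpna1 (106 ± 31.5 TPM), whose order did not exceed their spread. By group mean Nup210l was the least abundant member tested in each group, with mean levels of at most 1.26 TPM. In Compound 10 stimulated cells its 0.613 ± 0.063 TPM was not separated from Nup37, at 0.627 ± 0.170 TPM (SD, n = 3).

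The comparison at which the design aims is Compound 10 against vehicle in stimulated cells, where NFAT and AP-1 are active. With Compound 10, 11 of the 42 members tested were lower and 2 were higher at an adjusted p under 0.05 (edgeR's quasi-likelihood F test, Benjamini-Hochberg over all 14417 genes), the threshold for every call given here. Of all genes tested, 23.2% were called, 12.8% lower and 10.4% higher. The median log2 fold change of the members was -0.30, against 0.04 over all genes tested. The lower members were Kpna6, Ipo5, Nup62, Nup35, Kpna2, Ipo4, Xpot, Nup43, Tnpo3, Nup54 and Nup50, and the higher ones were Xpo7 and Kpna4. In TMM-scaled CPM, the pore proteins summed to 796 to 987 with Compound 10 and 1327 to 1419 with vehicle, the importin alpha genes to 833 to 987 and 1472 to 1475, and the importin beta family to 613 to 774 and 1045 to 1121, in the same order. The exportin sums overlapped, at 295 to 402 CPM with Compound 10 and 341 to 384 CPM with vehicle. Each class sum weighs its abundant genes most. Kpna2 alone had 278 to 312 CPM with Compound 10 and 705 to 748 CPM with vehicle. Of the 20 pore proteins tested, 15 were not called.

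**Figure D1:**
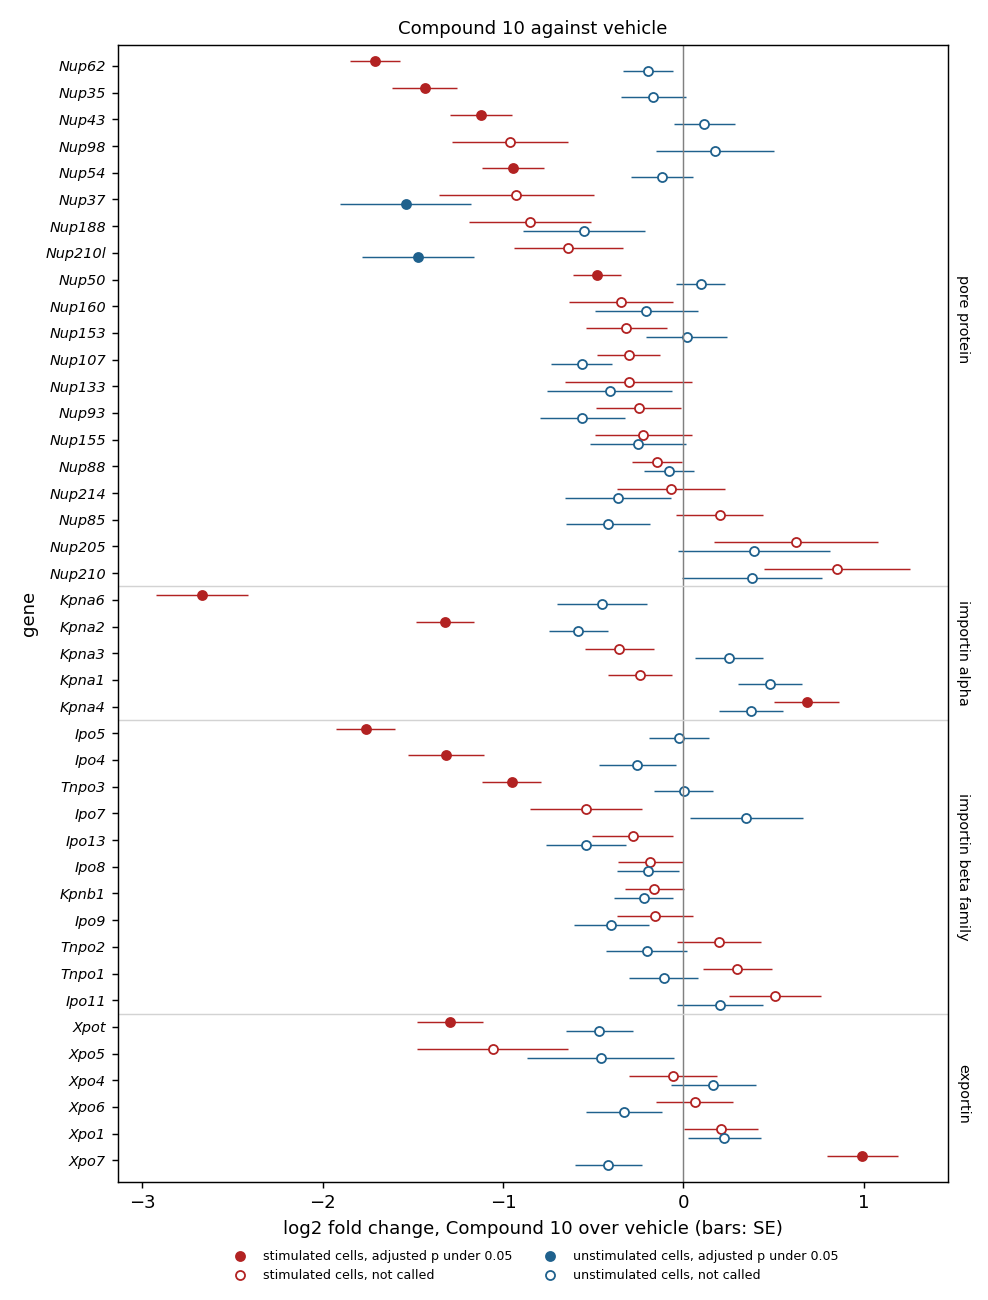
Log2 fold changes of Compound 10 over vehicle for the 42 members tested, in stimulated cells (red) and unstimulated cells (blue), with the gene on the vertical axis, grouped by class; bars are SE and filled points are called. Of the 13 red filled points, 11 lie left of 0, and of the blue points only those of Nup37 and Nup210l are filled.

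Among the pore proteins, 5 of 20 tested were lower with Compound 10 in stimulated cells and none was called higher by edgeR. An unadjusted p under 0.05 was reached by 7 of the 20, a count for which the share of all genes is not given. Nup62 (chromosome 7, 44816088 to 44830812, plus strand, GRCm38), an FG-repeat protein of the central channel, had 71.3, 68.8 and 69.3 CPM in Compound 10 stimulated cells, against 240.3 and 217 CPM in vehicle stimulated cells. It had 83.7 and 93.6 CPM in Compound 10 unstimulated cells, against 111, 95.9 and 97.95 CPM in vehicle unstimulated cells. The vehicle stimulated libraries stood above all others and the groups did not overlap in either state. In stimulated cells Nup62 was 3.27-fold lower with Compound 10 (log2 fold change -1.71 ± 0.14 SE, adjusted p = 4.17e-05).

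Nup54 (chromosome 5, 92415540 to 92435219, minus strand), its partner in the channel, had 53.7, 48.2 and 43.4 CPM in Compound 10 stimulated cells, against 104 and 82.7 CPM in vehicle stimulated cells. It was 1.92-fold lower (log2 -0.94 ± 0.17, adjusted p = 0.00245). Its unstimulated levels were 51.2 and 57.2 CPM with Compound 10 and 65.2, 51.8 and 59.5 CPM with vehicle, which overlapped. Of its 3344 31-base sequence words, 707 (21.1%) also occur in other genes, so its counts are uncertain to that extent. Most of these, 682, occur in the pseudogene Gm15790, at 0 CPM in all stimulated libraries. Both members of the central channel were lower (Nupl1, also called Nup58, and Nupl2, also called Nup42, fall outside the naming rule and were not analysed here), while 1 of 5 genes of the inner ring and 1 of 6 of the Y complex, the outer scaffold, were.

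Nup35 (chromosome 2, 80617236 to 80658906, plus strand), the lower member of the inner ring, had 21.9, 31.1 and 29.98 CPM in Compound 10 stimulated cells, against 78.5 and 71.2 CPM in vehicle stimulated cells. In unstimulated cells it had 25.7 and 29.3 CPM with Compound 10 and 30.3, 31.3 and 31.1 CPM with vehicle. Only the vehicle stimulated libraries were high, and the log2 fold change in stimulated cells was -1.43 ± 0.18 (adjusted p = 0.00027). Of its 3391 31-base sequence words, 1455 (42.9%) also occur in other genes. Most of these, 1340, occur in Gm4353, a gene model at 0 CPM in all stimulated libraries.

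Nup43 (chromosome 10, 7667503 to 7678881, plus strand), a Y complex protein, had 17.4, 16.5 and 16.3 CPM in Compound 10 stimulated cells, against 34.8 and 37.9 CPM in vehicle stimulated cells. Its unstimulated libraries lay between these groups, at 24.4 and 26.3 CPM with Compound 10 and 23.9, 20.1 and 26.1 CPM with vehicle. It was 2.18-fold lower with Compound 10 in stimulated cells (log2 -1.12 ± 0.17, adjusted p = 0.000866). Nup50 (chromosome 15, 84923411 to 84942963, plus strand), a nuclear basket protein that binds importin alpha, differed less, at 125, 125 and 136 CPM in Compound 10 stimulated cells and 188 and 171 CPM in vehicle stimulated cells. Its log2 fold change of -0.48 ± 0.13 was called at an adjusted p of 0.0231. The call was lost on leaving out vehicle stimulated replicate 1 (0.199) or 2 (0.0881) or Compound 10 stimulated replicate 1 (0.0677) or 2 (0.0681), and with upper-quartile scaling (0.0847) or library totals (0.0725).

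Nup98, whose precursor also yields a Y complex protein, narrowly missed the threshold. It had 137, 157 and 90.0 CPM in Compound 10 stimulated cells and 268 and 229.5 CPM in vehicle stimulated cells, with a log2 fold change of -0.96 ± 0.32 (adjusted p = 0.0512). The groups did not overlap, and replicate 3 of the Compound 10 libraries was the lowest. The other 14 pore proteins that were not called ranged between -0.93 for Nup37 and 0.85 for Nup210, a pore membrane protein.

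The importin alpha genes changed in opposite directions, with Kpna6 and Kpna2 lower and Kpna4 higher of 5 tested. Kpna6 (chromosome 4, 129643980 to 129672767, minus strand) had 8.40, 9.17 and 7.96 CPM in Compound 10 stimulated cells, against 54.6 and 53.7 CPM in vehicle stimulated cells. It had 18.1 and 10.8 CPM in Compound 10 unstimulated cells, against 24.8, 18.4 and 15.8 CPM in vehicle unstimulated cells. The Compound 10 stimulated libraries were the lowest of the 10 and the vehicle stimulated libraries the highest. Kpna6 was 6.35-fold lower with Compound 10 in stimulated cells (log2 -2.67 ± 0.25, adjusted p = 8.35e-05), the largest log2 fold change of any member in this comparison. Within the runs the log2 difference was -2.63 in run 1 and -2.49 in run 2, from the same libraries. All 13 called members kept their sign in both runs, but the stimulated groups of each did not overlap, so the sign was fixed in advance.

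Kpna2 (chromosome 11, 106988629 to 106999541, minus strand) had 278, 284 and 312 CPM in Compound 10 stimulated cells, against 705 and 748 CPM in vehicle stimulated cells. In unstimulated cells it had 168 and 182 CPM with Compound 10 and 243, 227 and 318 CPM with vehicle, without overlap. It was 2.50-fold lower with Compound 10 in stimulated cells (log2 -1.32 ± 0.16, adjusted p = 0.000221). Kpna2 shares 66.0% of its 31-base words with other genes, most with Gm10184, which had 6.28 to 6.85 CPM in Compound 10 stimulated and 40.2 to 44.4 CPM in vehicle stimulated cells, so reads of the pair cannot be told apart with certainty. Kpna4 (chromosome 3, 69067149 to 69127113, minus strand) went the other way, with 128, 124 and 107 CPM in Compound 10 stimulated cells and 79.7 and 69.7 CPM in vehicle stimulated cells. Its log2 fold change was 0.68 ± 0.18 (adjusted p = 0.0181), and the call was lost without vehicle stimulated replicate 1 (0.0782) or 2 (0.157) or Compound 10 stimulated replicate 1 (0.057) or 2 (0.0532). Kpna1 and Kpna3 were not called, with log2 fold changes of -0.24 and -0.35.

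The make-up of the importin alpha RNA differed accordingly. Of the summed TPM of the class, Kpna2 held 45.0% to 52.8% in Compound 10 stimulated cells and 64.0% to 65.8% in vehicle stimulated cells. Kpna6 held 1.36% to 1.67% with Compound 10 and 4.80% to 5.35% with vehicle. Kpna4 held 7.99% to 8.69% with Compound 10 and 2.84% to 3.02% with vehicle, and Kpna1 29.8% to 34.0% and 20.2%. None of these 4 shares overlapped between the stimulated groups. The summed TPM was 320.4 to 385 with Compound 10 and 582 to 625 with vehicle. These shares are descriptions without a test, since TPM keeps no depth.

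**Figure D2:**
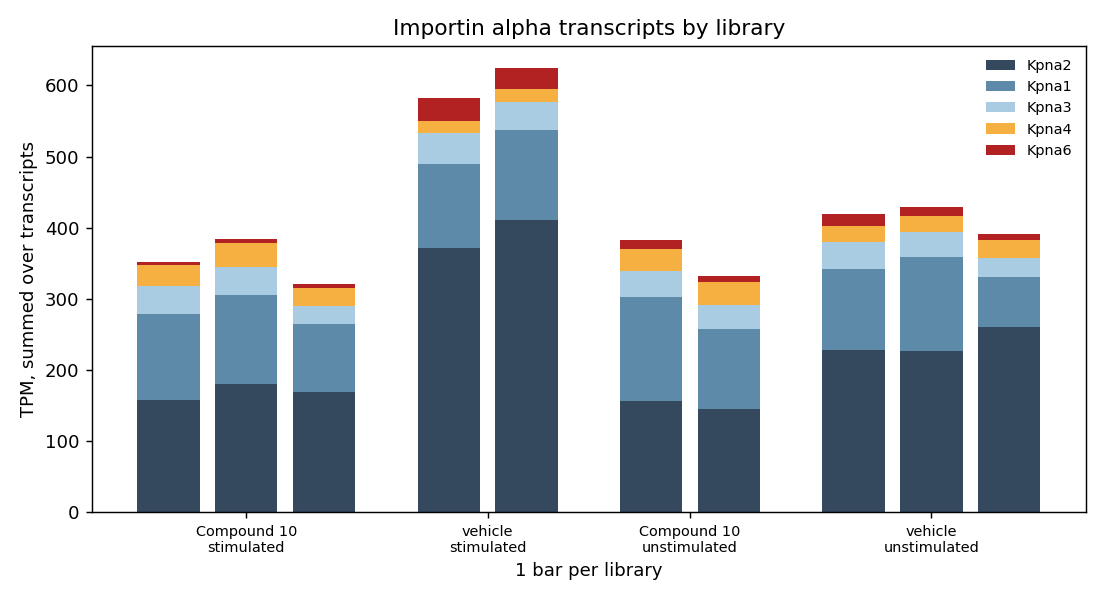
TPM of the importin alpha genes, summed over transcripts and stacked, with 1 bar per library and the groups along the horizontal axis; Kpna7, at most 0.162% of the class, is not drawn. The 2 vehicle stimulated libraries reach 582 and 625 TPM and the 3 Compound 10 stimulated libraries 320.4 to 385 TPM, with a thinner Kpna6 layer.

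Most Kpna6 counts were assigned to a pair of transcripts with different first exons and ends. Kpna6-201 spans 2195 bases and its first exon lies at 129662400 to 129662479; Kpna6-202 spans 5710 bases and its first exon lies at 129672677 to 129672767. They share 12 identical exons. The 3′ untranslated region after the stop codon is 508 bases in Kpna6-201 and 4012 bases in Kpna6-202. The annotated coding sequences differ only at the start, where Kpna6-202 has 9 more bases, or 3 residues, and encodes 536 residues against 533. Their first coding bases are printed here from the GENCODE transcripts because they show how little the encoded proteins differ; capitals mark the annotated start codons, and the second capital codon of the longer form is the start of the shorter one.
Kpna6-202: ATGgagaccATGgcaagcccagggaaggac
Kpna6-201: ATGgcaagcccagggaaggac

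Kpna6-201 had 4.69, 4.80 and 6.15 CPM in Compound 10 stimulated cells, against 44.0 and 37.6 CPM in vehicle stimulated cells. In unstimulated cells it had 7.18 and 4.54 CPM with Compound 10 and 1.34, 2.25 and 3.36 CPM with vehicle. Only the vehicle stimulated libraries were high. Kpna6-202 had 2.98, 3.45 and 1.11 CPM in Compound 10 stimulated cells, against 7.42 and 12.9 CPM in vehicle stimulated cells, and in unstimulated cells 10.2 and 5.49 CPM with Compound 10 against 21.8, 14.8 and 11.7 CPM with vehicle. The longer form thus had its highest mean in vehicle unstimulated cells, though these libraries overlapped the vehicle stimulated ones (11.7 against 12.9 CPM). It exceeded the shorter form in each vehicle unstimulated library, while the shorter form exceeded it in every stimulated library. These are divisions of reads by kallisto between overlapping transcripts, and they were not tested.

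**Figure D3:**
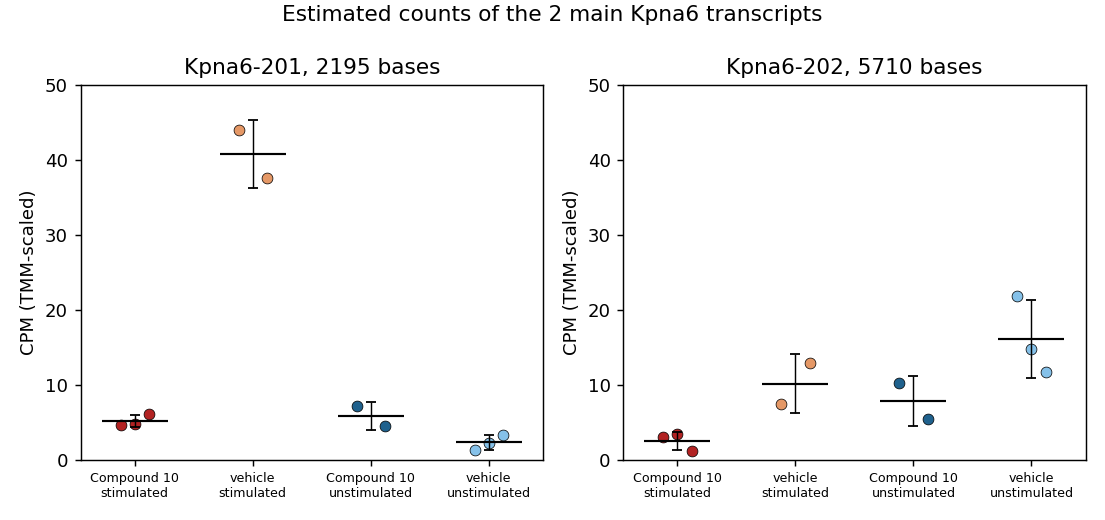
TMM-scaled CPM of Kpna6-201 (left) and Kpna6-202 (right) by group on the horizontal axis, with 1 point per library, the group mean as a line and the SD as a bar. In the left panel the 2 vehicle stimulated libraries, at 44.0 and 37.6 CPM, stand above all others, and in the right panel the vehicle unstimulated libraries, at 11.7 to 21.8 CPM, have the highest mean.

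In the importin beta family 3 of 11 genes were lower with Compound 10 in stimulated cells and none was called higher by edgeR. An unadjusted p under 0.05 was reached by 3, a count for which the share of all genes is not given. Ipo5 (chromosome 14, 120911224 to 120947999, plus strand), an importin of ribosomal proteins, had 84.6, 88.9 and 72.6 CPM in Compound 10 stimulated cells, against 294 and 262 CPM in vehicle stimulated cells. In unstimulated cells it had 70.9 and 62.9 CPM with Compound 10 and 76.6, 70.5 and 57.1 CPM with vehicle. The unstimulated groups overlapped, and the vehicle stimulated libraries stood apart from the other 8. Ipo5 was 3.39-fold lower with Compound 10 in stimulated cells (log2 -1.76 ± 0.17, adjusted p = 7.79e-05). It shares 14.2% of its 31-base words with the pseudogene Gm14857, which had at most 0.171 CPM in Compound 10 stimulated and 0.173 CPM in vehicle stimulated cells.

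Ipo4 (chromosome 14, 55625400 to 55635957, minus strand), known for importing histones, had 32.1, 37.4 and 44.4 CPM in Compound 10 stimulated cells, against 95.3 and 93.5 CPM in vehicle stimulated cells. Its unstimulated levels were 28.5 and 26.1 CPM with Compound 10 and 38.9, 34.7 and 24.4 CPM with vehicle, which overlapped. The difference in stimulated cells was 2.49-fold (log2 -1.31 ± 0.21, adjusted p = 0.00115). Ipo4 shares 53.2% of its 31-base words with the overlapping gene model Gm49378, which had at most 5.09 CPM in Compound 10 stimulated and 3.03 CPM in vehicle stimulated cells.

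Tnpo3 (chromosome 6, 29540827 to 29609887, minus strand), which imports SR splicing factors, had 79.8, 80.3 and 68.1 CPM in Compound 10 stimulated cells, against 146 and 149 CPM in vehicle stimulated cells. Its unstimulated levels of 122 and 100.3 CPM with Compound 10 and 113, 125 and 94.3 CPM with vehicle overlapped. It was 1.93-fold lower with Compound 10 in stimulated cells (log2 -0.95 ± 0.16, adjusted p = 0.00171). Tnpo3 overlaps Irf5 on the opposite strand over 411 exonic bases, and the libraries keep no strand; Irf5 was at 5.66 to 6.37 CPM in Compound 10 stimulated and 13.6 to 21.6 CPM in vehicle stimulated cells. Kpnb1, the importin beta that carries importin alpha, had 146, 121 and 123 CPM with Compound 10 and 150.3 and 140.0 CPM with vehicle, which overlapped (log2 -0.16, adjusted p = 0.539). Tnpo1, Tnpo2, Ipo7, Ipo8, Ipo9, Ipo11 and Ipo13 were not called either, with log2 fold changes between -0.54 and 0.51.

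Among the 6 exportins, Xpot was lower and Xpo7 higher. Xpot (chromosome 10, 121587380 to 121626332, minus strand), the exportin of tRNA, had 32.5, 32.4 and 26.9 CPM in Compound 10 stimulated cells, against 82.8 and 67.3 CPM in vehicle stimulated cells. Its unstimulated levels were 32.6 and 35.05 CPM with Compound 10 and 54.2, 46.5 and 39.6 CPM with vehicle, and the groups did not overlap in either state. In stimulated cells the log2 fold change was -1.29 ± 0.18 (adjusted p = 0.000543). Xpot shares 22.8% of its 31-base words with the pseudogene Gm7389, which had 0.221 to 0.943 CPM in Compound 10 stimulated and 1.29 to 2.08 CPM in vehicle stimulated cells, so part of its count is uncertain. Xpot held 4.12% to 4.54% of the exportin TPM with Compound 10 and 9.74% to 10.8% with vehicle in stimulated cells.

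Xpo7 (chromosome 14, 70654246 to 70766628, minus strand), an exportin of broad specificity, had 48.4, 35.8 and 35.7 CPM in Compound 10 stimulated cells, against 19.1 and 21.03 CPM in vehicle stimulated cells. In unstimulated cells it had 52.4 and 53.3 CPM with Compound 10 and 78.5, 72.7 and 60.5 CPM with vehicle. The order of Compound 10 and vehicle was thus opposite in the 2 states, with no overlap in either. Xpo7 was 1.99-fold higher with Compound 10 in stimulated cells (log2 0.99 ± 0.20, adjusted p = 0.00389), and the call was lost without vehicle stimulated replicate 1 (0.0561). Xpo1, the exportin of leucine-rich signals, was not called in any comparison and ranged between 75.8 and 127 CPM. Xpo5, which exports microRNA precursors, had 9.29, 10.4 and 5.40 CPM in Compound 10 stimulated cells and 16.9 and 17.8 CPM in vehicle stimulated cells (log2 -1.06 ± 0.42, adjusted p = 0.0935). Xpo4 and Xpo6 overlapped between the groups.

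Promoter sequence was available for 35 of the 44 members, as 42 RefSeq windows on GRCm38.p6, and the 250 bases before each start were searched on both strands. The AP-1 letters TGANTCA occurred in 3 members, Ipo4, Tnpo2 and Xpot, and in 6.75% of all 32851 windows. GGAAA, the core bound by NFAT, occurred in 22 members and in 55.6% of all windows, and a composite of this core with AP-1 letters 3 bases further on occurred in no member and in 0.0152% of all windows. CACGTG, an E-box, occurred in 6 members, Ipo7, Nup188, Nup54, Nup93, Tnpo2 and Xpot (6.02% of windows). TGACGTCA, a CRE, occurred in 2 (1.55%), and the palindromic NRF1 motif GCGCATGCGC in 4, Nup107, Nup50, Nup62 and Xpo5 (0.782%). The counts are of genes and the percentages of windows, so they are unlike units. Ipo7, Nup188, Nup93, Tnpo2, Nup107 and Xpo5 hold E-box or NRF1 letters and were not called lower with Compound 10 in stimulated cells. The windows of 3 members that were lower with Compound 10 in stimulated cells are printed as examples of these letters, which the windows of Ipo4 (AP-1) and Nup50 (NRF1), also lower, hold too; capitals mark the E-box, AP-1 or NRF1 letters, which in Nup54 begin 100 bases, in Xpot 231 and 71 bases and in Nup62 20 bases before the RefSeq start. Each is read 5′ to 3′ on the strand of its gene. A match of letters is not evidence of binding, and no window was tested.
Nup62 (chr7:44815838-44816087, plus strand): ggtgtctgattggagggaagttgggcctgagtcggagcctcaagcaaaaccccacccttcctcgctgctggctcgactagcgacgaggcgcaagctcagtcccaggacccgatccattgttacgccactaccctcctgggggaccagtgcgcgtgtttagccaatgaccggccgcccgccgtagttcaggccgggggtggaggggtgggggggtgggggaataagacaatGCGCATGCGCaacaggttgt
Nup54 (chr5:92435200-92435449, minus strand): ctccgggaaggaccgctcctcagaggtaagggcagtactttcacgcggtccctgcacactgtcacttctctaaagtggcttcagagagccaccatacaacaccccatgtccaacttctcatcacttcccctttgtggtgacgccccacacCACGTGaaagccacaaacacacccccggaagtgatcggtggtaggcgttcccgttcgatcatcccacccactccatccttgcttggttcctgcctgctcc
Xpot (chr10:121626333-121626582, minus strand): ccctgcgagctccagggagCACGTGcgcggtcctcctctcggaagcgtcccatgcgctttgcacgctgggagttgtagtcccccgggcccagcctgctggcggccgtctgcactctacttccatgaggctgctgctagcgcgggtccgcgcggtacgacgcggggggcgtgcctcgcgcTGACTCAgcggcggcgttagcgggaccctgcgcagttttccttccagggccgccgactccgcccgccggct

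In unstimulated cells Compound 10 left fewer members past the threshold. Of the 42 members, 2 were lower and none higher by edgeR, where 8.43% of all genes were called, 3.78% lower and 4.65% higher. An unadjusted p under 0.05 was reached by 9 members, and DESeq2 called 4, all lower. The shares of all genes for these counts are not given, so neither can be set against a background. The median log2 fold change was -0.20 over the members and 0.00 over all genes. Nup37, a Y complex protein, had 1.72 and 1.56 CPM with Compound 10, against 4.38, 4.15 and 5.74 CPM with vehicle (log2 -1.54 ± 0.36, adjusted p = 0.0277). Nup210l, a relative of the membrane protein Nup210 best known from testis, had 1.47 and 1.48 CPM with Compound 10, against 4.05, 4.71 and 3.56 CPM with vehicle (log2 -1.47 ± 0.31, adjusted p = 0.0182). Both are genes of few counts whose groups did not overlap. The call of Nup210l was lost without Compound 10 unstimulated replicate 1 (0.0708) or 2 (0.114) or vehicle unstimulated replicate 2 (0.0567). That of Nup37 was lost without Compound 10 unstimulated replicate 1 (0.0851) or 2 (0.16) or vehicle unstimulated replicate 1 (0.0631), 2 (0.0558) or 3 (0.0589). Kpna6 and Ipo5 were not called, with log2 fold changes of -0.45 ± 0.25 and -0.02 ± 0.17, and Kpna2 lay close to the threshold, at -0.58 ± 0.16 (adjusted p = 0.0515).

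Whether Compound 10 acted differently in the stimulated and unstimulated states was tested as an interaction, the log2 fold change in stimulated minus that in unstimulated cells. It was called for 7 of 42 members, 6 of them negative and 1 positive, where 6.63% of all genes were called, 4.08% negative and 2.55% positive. The negative ones were Kpna6 at -2.22 ± 0.35 (adjusted p = 0.00562), Ipo5 at -1.74 ± 0.23 (0.00265), Nup62 at -1.51 ± 0.19 (0.00221), Nup35 at -1.27 ± 0.25 (0.0154), Nup43 at -1.24 ± 0.24 (0.0129) and Tnpo3 at -0.95 ± 0.23 (0.0333). The positive one was Xpo7 at 1.41 ± 0.27 (0.0126). Xpo7 was 1.99-fold higher with Compound 10 in stimulated cells, and in unstimulated cells its log2 fold change was -0.42 ± 0.19 and was not called. Kpna6, Ipo5 and Nup62 kept their call whichever library was left out. Nup35 lost it without vehicle stimulated replicate 1 (0.0953) or 2 (0.0624) or Compound 10 unstimulated replicate 2 (0.0593). Nup43 lost it without the same libraries (0.0624, 0.0806 and 0.0529), and Xpo7 without vehicle stimulated replicate 1 (0.0854) or 2 (0.0581). Tnpo3 lost it in 7 of the 10 fits that left out a library, with adjusted p between 0.0524 and 0.134, the highest without vehicle stimulated replicate 1, and with library totals (0.105). Run 2 alone holds all 4 groups, and there the 7 members had the same sign, at -2.47 for Kpna6, -1.56 for Ipo5, -1.45 for Nup62 and 1.22 for Xpo7. The calls were made from these same libraries, so the signs in run 2 are no separate check.

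**Figure D4:**
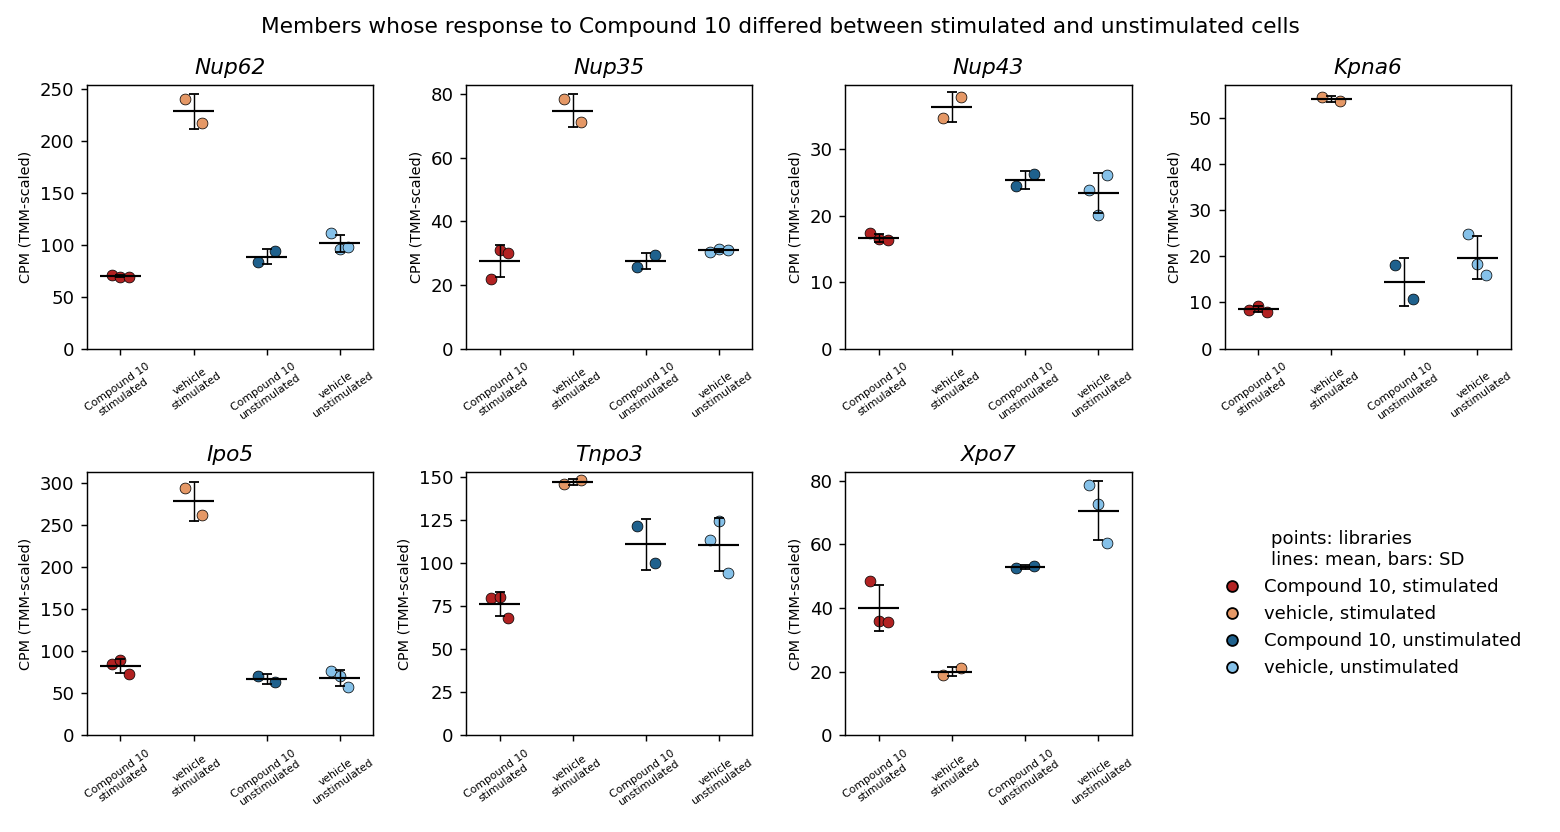
TMM-scaled CPM of the 7 members with a called interaction, by group on the horizontal axis, with 1 point per library, the group mean as a line and the SD as a bar; each panel starts at 0. In the first 6 panels the 2 vehicle stimulated libraries are the highest, and for Xpo7 they are the lowest, at 19.1 and 21.03 CPM.

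Stimulation itself, set against no stimulation, was compared within vehicle and within Compound 10 cells. Under vehicle, 14 of 42 members were higher after stimulation and 9 were lower, where 39.0% of all genes were called, 19.5% higher and 19.4% lower. The median log2 fold change was -0.10 over the members and -0.06 over all genes. This comparison shares the vehicle stimulated libraries with that of Compound 10 in stimulated cells, so the signs of the 2 are not independent. The higher members were Nup98, Ipo5, Ipo7, Ipo4, Kpna2, Kpna6, Nup35, Nup62, Kpna3, Kpna1, Nup50, Xpot, Nup54 and Nup43, and the lower ones Nup37, Xpo7, Nup85, Nup88, Ipo13, Ipo8, Nup107, Ipo9 and Tnpo2. The directions depend in part on scaling. With library totals alone the median gene lay at -0.83, 8 members were higher and 24 lower, and Xpot, Nup43, Nup54 and Nup50 turned to -0.10, -0.14, -0.12 and -0.04, still above that median. The lower count also grew to 15 with the index run as a block (15 higher) and to 17 without the third run (15 higher). The shares of all genes called in these alternative fits are not given, so their counts cannot be set against a background. Gene models that resemble ribosomal RNA took 5.58% to 11.6% of counts after stimulation and 2.00% to 5.19% without it. The myeloid markers, scaled to library totals alone, were higher in unstimulated cells, as given above. The part of either in these results was not tested.

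The largest rise under vehicle was that of Nup98, which had 268 and 229.5 CPM in vehicle stimulated cells, against 44.1, 41.9 and 20.7 CPM in vehicle unstimulated cells. It was 7.0-fold higher (log2 2.81 ± 0.33, adjusted p = 5.52e-05). Nup62 and Nup35 were 2.25-fold and 2.42-fold higher, from the levels given above. Nup54 and Nup43 were 1.58-fold and 1.55-fold higher, and lost their call without vehicle stimulated replicate 1 (0.143 for Nup54, 0.0504 for Nup43) or, for Nup43, replicate 2 (0.107). Nup50 had 188 and 171 CPM in vehicle stimulated cells and 105, 108 and 109.8 CPM in vehicle unstimulated cells, a 1.67-fold difference. In the Y complex, Nup37, Nup85 and Nup107 fell, so that 3 of its 6 genes were lower and 1, Nup43, was higher. Nup85 had 22.8 and 24.5 CPM in vehicle stimulated cells, against 57.5, 54.4 and 71.7 CPM in vehicle unstimulated cells (log2 -1.37 ± 0.25, adjusted p = 0.00105). Nup88, on the cytoplasmic side of the pore, had 81.5 and 84.3 CPM in vehicle stimulated cells, against 169, 144 and 149 CPM in vehicle unstimulated cells (log2 -0.89 ± 0.14, adjusted p = 0.000458).

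Of the 5 importin alpha genes tested, 4 were higher after stimulation under vehicle, and Kpna4 was not called. Kpna2 was 2.77-fold higher (adjusted p = 3.13e-05) and Kpna6 2.75-fold higher (adjusted p = 0.00063). Kpna1 had 451 and 446 CPM in vehicle stimulated cells, against 249.8, 252 and 192 CPM in vehicle unstimulated cells, a 1.94-fold difference. Kpna3 had 181 and 158 CPM in vehicle stimulated cells, against 88.2, 77.7 and 69.6 CPM in vehicle unstimulated cells, a 2.16-fold difference. With library totals alone Kpna1 and Kpna3 kept their direction but not their call (0.445 and 0.159).

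The importin beta family split, with 3 higher and 4 lower of 11 after stimulation under vehicle. Ipo5 was 4.09-fold higher (log2 2.03 ± 0.17, adjusted p = 3.42e-06) and Ipo4 2.90-fold higher. Ipo7, an importin of ribosomal proteins and histone H1, had 198 and 156 CPM in vehicle stimulated cells, against 61.8, 66.4 and 36.3 CPM in vehicle unstimulated cells, a 3.23-fold difference. Ipo8, an importin linked to Argonaute proteins, had 16.2 and 18.6 CPM in vehicle stimulated cells, against 26.8, 30.9 and 33.8 CPM in vehicle unstimulated cells. Ipo13, which works in both directions, had 34.8 and 28.3 CPM in vehicle stimulated cells, against 70.0, 59.2 and 42.9 CPM in vehicle unstimulated cells. Their log2 fold changes were -0.81 ± 0.18 and -0.86 ± 0.23. The calls were lost without vehicle stimulated replicate 1 for Ipo8 and replicate 2 for Ipo13, fits that leave a single library in that group. Over all fits that left out a library, the log2 fold change stayed between -0.93 and -0.72 for Ipo8. For Ipo13 it stayed between -1.04 and -0.69. Ipo9 and Tnpo2 were lower by less, at -0.65 and -0.64, and lost their calls in 4 and 7 of the 10 fits that left out a library, with adjusted p up to 0.168 without vehicle stimulated replicate 2 and 0.283 without vehicle stimulated replicate 1. Counts rebuilt from TPM put Ipo9 at 0.18 (adjusted p = 0.628).

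Among the exportins, Xpot was 1.60-fold higher after stimulation under vehicle, a call lost without vehicle stimulated replicate 1 (0.147). Xpo7 was 3.51-fold lower (log2 -1.81 ± 0.20, adjusted p = 3.74e-05). The other 4 exportins were not called.

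**Figure D5:**
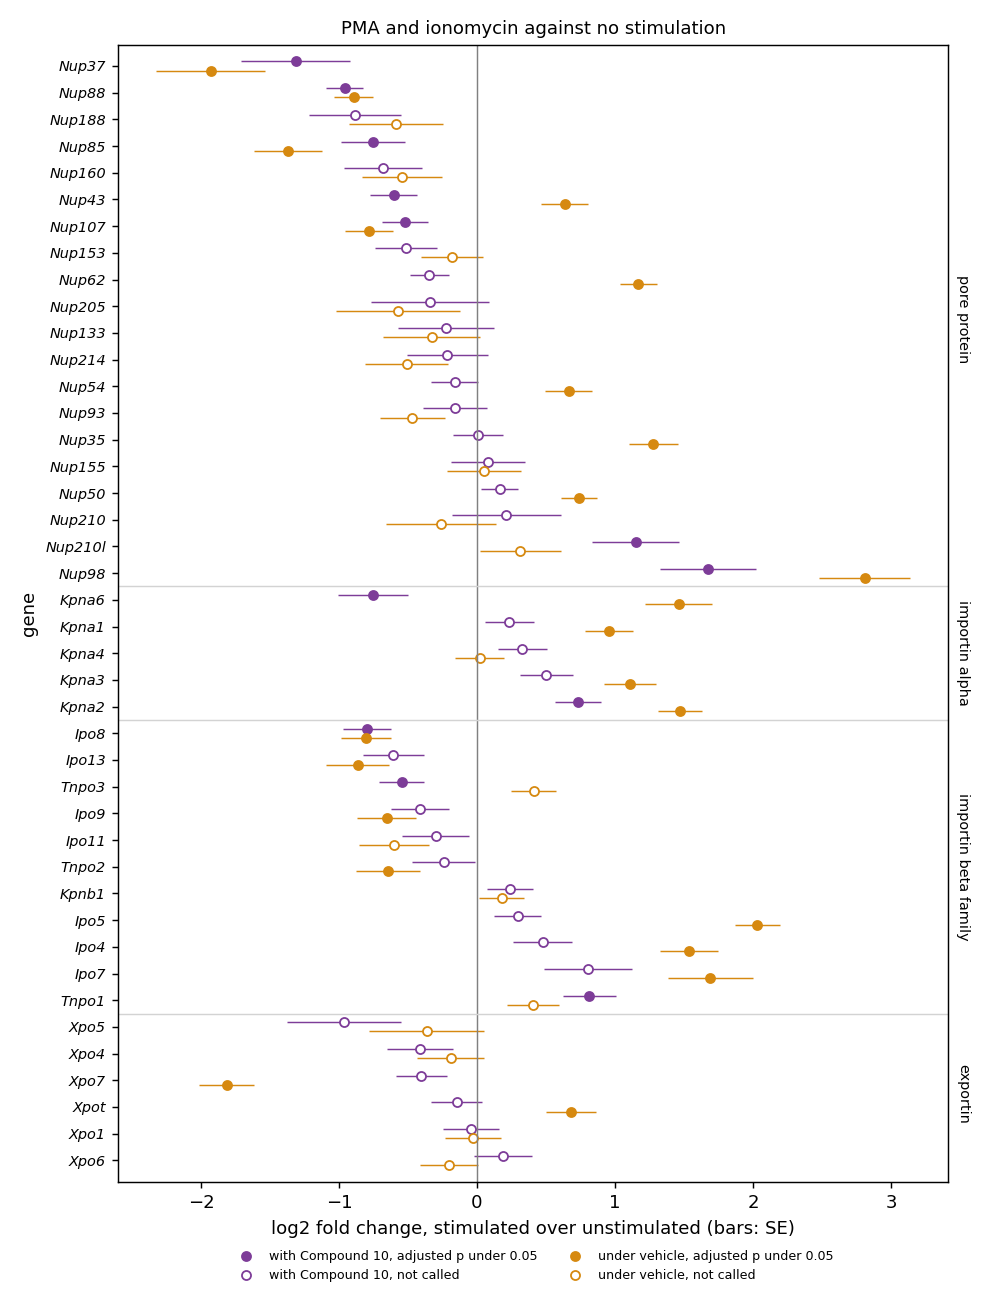
Log2 fold changes of stimulated over unstimulated cells for the 42 members tested, with Compound 10 (purple) and under vehicle (orange), with the gene on the vertical axis, grouped by class; bars are SE and filled points are called. Under vehicle 14 members are filled to the right of 0 and 9 to the left, and with Compound 10 the numbers are 4 and 8.

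With Compound 10, stimulation left 4 members higher and 8 lower, where 26.5% of all genes were called, 12.8% higher and 13.7% lower. The median log2 fold change was -0.22 over the members and -0.01 over all genes. The split depends on scaling. Library totals gave 1 higher and 26 lower, with medians of -0.82 over the members and -0.60 over all genes. Upper-quartile scaling gave 5 higher and 4 lower, with medians of -0.13 and 0.07. The shares of all genes called with these scalings are not given, so the counts cannot be set against a background. Whichever library was left out, the call was kept for Nup88, at -0.96 ± 0.14 (adjusted p = 0.000455), and Ipo8, at -0.79 ± 0.17 (adjusted p = 0.00611). Nup88 had 73.2, 79.3 and 72.4 CPM in Compound 10 stimulated cells, against 141 and 151 CPM in Compound 10 unstimulated cells. Ipo8 had 14.8, 16.6 and 14.7 CPM in Compound 10 stimulated cells, against 25.7 and 27.6 CPM in Compound 10 unstimulated cells. Nup98 was 3.19-fold higher, at 137, 157 and 90.0 CPM in Compound 10 stimulated cells and 49.4 and 31.2 CPM in Compound 10 unstimulated cells (log2 1.67 ± 0.35, adjusted p = 0.00449; 0.0545 without Compound 10 unstimulated replicate 2). Its interaction was -1.14 ± 0.46 and was not called (adjusted p = 0.169).

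Each of the other called members lost its call in at least 1 fit that left out a library. Kpna2 was 1.66-fold higher (adjusted p = 0.00726; 0.0526 without Compound 10 unstimulated replicate 1). Tnpo1, the import receptor of many RNA-binding proteins, had 170.0, 182 and 126 CPM in Compound 10 stimulated cells and 103 and 78.5 CPM in Compound 10 unstimulated cells (log2 0.81 ± 0.19, adjusted p = 0.00941; 0.117 without Compound 10 unstimulated replicate 2). It shares 18.2% of its 31-base words with the pseudogene Gm6493, at 0 CPM in each library. Nup210l had 3.21, 2.83 and 3.80 CPM in Compound 10 stimulated cells, against 1.47 and 1.48 CPM in Compound 10 unstimulated cells, a 2.22-fold difference, and lost its call without 3 single libraries (up to 0.107, without Compound 10 unstimulated replicate 2). With library totals Kpna2, Tnpo1 and Nup210l were not called, at log2 fold changes of 0.14, 0.22 and 0.56 (adjusted p = 0.497, 0.419 and 0.186). Kpna6 was lower, at -0.75 ± 0.25 (adjusted p = 0.0479), with a call lost in 7 of 10 fits that left out a library (up to 0.403, without Compound 10 unstimulated replicate 1) and with median-of-ratios or upper-quartile scaling (0.0524 and 0.0699). In the Y complex 4 of 6 genes were lower, namely Nup37, Nup43, Nup85 and Nup107, at -1.31, -0.60, -0.75 and -0.52. Nup37 had 0.553, 0.514 and 0.884 CPM in Compound 10 stimulated cells, against 1.72 and 1.56 CPM in Compound 10 unstimulated cells. Each lost its call in 4 to 7 such fits, with highest adjusted p of 0.0912, 0.117, 0.14 and 0.151. For Nup37 that fit left out Compound 10 stimulated replicate 2, and for the other 3 Compound 10 unstimulated replicate 2. Tnpo3 was lower at -0.54 ± 0.16 and lost its call in 5 such fits (up to 0.186, without Compound 10 unstimulated replicate 1). Upper-quartile scaling ended the calls of Tnpo3, Nup107 and Nup85 (adjusted p = 0.0587, 0.0805 and 0.0507).

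The 15 members called in none of the 5 comparisons were Nup93, Nup133, Nup153, Nup155, Nup160, Nup188, Nup205, Nup210, Nup214, Kpnb1, Ipo11, Xpo1, Xpo4, Xpo5 and Xpo6. The log2 fold changes of Kpnb1 stayed between -0.22 and 0.24. A missed threshold does not show that they were unchanged, and Xpo5 and Nup188 reached -1.06 and -0.89.

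The other genes of the pathway, 39 genes outside the naming rule that were all tested, were described by the same fits. With Compound 10 in stimulated cells 14 were lower and 3 higher, where 12.8% of all genes were called lower and 10.4% higher. In the Ran cycle 5 of 7 were lower, among them Ranbp3 (-1.17), Rcc1, the exchange factor that loads Ran with GTP (-1.38), and Ranbp1 (-1.15). The calls of the other 2 were less stable: Ran lost its call in 4 fits that left out a library and Rangap1 in 6. Cse1l, the exportin that returns importin alpha to the cytoplasm, had 121, 126 and 117 CPM in Compound 10 stimulated cells and 326.3 and 326.5 CPM in vehicle stimulated cells (log2 -1.43 ± 0.14, adjusted p = 8.78e-05). Phax, an adaptor in snRNA export, was lower (-1.18), while Snupn, the import adaptor of snRNPs, was higher (0.86), a call lost without vehicle stimulated replicate 1 (0.136) or 2 (0.107) or Compound 10 stimulated replicate 1 (0.0558) or 3 (0.0605). Of 10 other pore proteins 3 were lower, Rae1 (-1.46), Sec13 (-1.41) and Pom121 (-1.12), and 2 higher. Of 16 mRNA export genes 4 were lower, including Thoc3 (-1.71), Nxt2 (-1.46; adjusted p = 0.0945 without vehicle stimulated replicate 2) and Thoc2 (-0.65; up to 0.131 in 3 fits, without vehicle stimulated replicate 1).

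In unstimulated cells Compound 10 left 5 of the 39 lower (Sec13, Ranbp3, Phax, Thoc3 and Rcc1, between -0.90 and -0.62) and 1 higher (Seh1l, 0.54), where 8.43% of all genes were called. Each of these calls was lost without Compound 10 unstimulated replicate 2, at adjusted p between 0.125 and 0.284, and those other than Sec13 were lost in 5 to 9 of the 10 fits that left out a library. The interaction was called for Cse1l (-0.93 ± 0.20), Rae1 (-1.08 ± 0.28) and Ahctf1 (-0.90 ± 0.22), a DNA-binding partner of the Y complex, where 6.63% of all genes were called, so that 3 of 39 is near the background. Leaving out a library ended the call of Cse1l in 3 fits (up to 0.101, without vehicle stimulated replicate 1), of Rae1 in 8 (up to 0.159, without vehicle stimulated replicate 2) and of Ahctf1 in 8 (up to 0.156, without vehicle stimulated replicate 1). Stimulation under vehicle left 8 higher and 7 lower, near the 39.0% called of all genes, with Ran itself 1.43 higher on the log2 scale and Gle1, a cytoplasmic mRNA export factor, at -1.62. With Compound 10 it left 2 higher and 7 lower, also near the 26.5% called of all genes, with Ran at 0.75 (adjusted p = 0.0111; 0.101 without Compound 10 unstimulated replicate 1) and Gle1 at -0.88.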

How the data were processed

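RNA was measured in 10 libraries of sorted naive CD4 T cells. Per the labels' protocols, libraries were made from total RNA with Clontech SMART-seq, for which no strand is recorded. Per the submitters' processing notes, cutadapt, kallisto and the build mm10 were used; the sources used here do not give their versions or the transcript set. The authors deposited, per the file headers, kallisto's estimated counts per transcript, with TPM, length and effective length beside them. The deposited TPM values are scaled per length and to a fixed sum within a library, per the file headers, and were used for shares and levels between genes, without a test.

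Of 109617 transcripts 108214 were matched to GENCODE M21 (GRCm38) genes by identifier; the 1403 others held 0.507% to 0.671% of counts. Over all transcripts, libraries held 10694591 to 33486259 estimated counts; those of matched transcripts were summed by gene and rounded. edgeR 4.0.16 (R 4.3.3) fitted all 10 libraries with 1 coefficient per group, TMM factors (0.731 to 0.850 after stimulation, 1.20 to 1.34 without) and filterByExpr by group. Contrasts were tested with the quasi-likelihood F test and Benjamini-Hochberg over 14417 genes. The SE follows from the estimate divided by the root of F. CPM values use TMM factors, except the sums of cell type markers, which were scaled to library totals alone. A call is an adjusted p under 0.05. Alternatives were other scalings (median-of-ratios, upper-quartile, library totals), protein-coding genes only, no filter beyond at least 1 count, DESeq2 1.42.0, the contrast's groups only, counts from length-scaled TPM, a replicate block, a block by runs of consecutive library index numbers (inferred from the numbers alone) and leaving out each library; leaving out the third run and adding the counts of the gene that shares most sequence were chosen after seeing the data. Sequence sharing was counted in 31-base words over GENCODE transcripts, and genes with at least 10% shared were treated as uncertain. The test was also run on simulated counts, drawn without run or replicate effects. The outcome is not given here and lends the calls no support.

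Values per library are given for Kpna6 and Ipo5 and for up to 5 called members per class and contrast with the smallest adjusted p, and up to 3 called genes per class were named from the 39 other pathway genes; Nup98, Kpnb1, Xpo1, Xpo5, Nup107, Ipo9 and Tnpo2 are also described, chosen after their values were seen. Members, classes and lists were chosen with earlier results of these data known.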

Additional observations from a re-analysis of the deposited data

Results flagged for a closer look

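The effect of Compound 10 differed between stimulated and unstimulated cells, by edgeR's test of the interaction, for 7 members. The differences, in log2 units as stimulated minus unstimulated, were -2.22 for Kpna6, -1.74 for Ipo5, -1.51 for Nup62, -1.27 for Nup35, -1.24 for Nup43, -0.95 for Tnpo3 and 1.41 for Xpo7. For the 6 negative ones the vehicle stimulated libraries were the highest of the 10, and for Xpo7 the lowest. The same test flagged 3 other genes of the pathway, Rae1 at -1.08, Cse1l at -0.93 and Ahctf1 at -0.90. Rae1 had 30.6, 44.1 and 41.04 CPM in Compound 10 stimulated cells, against 103 and 110.1 CPM in vehicle stimulated cells. Ahctf1 had 297, 254 and 221 CPM in Compound 10 stimulated cells, against 359 and 334 CPM in vehicle stimulated cells. In unstimulated cells Ahctf1 went the other way, with 267 and 236 CPM with Compound 10, against 184, 194 and 168 CPM with vehicle. Its log2 fold change with Compound 10 was -0.43 in stimulated and 0.47 in unstimulated cells, and edgeR called neither. Of these 10 calls of the interaction, those of Kpna6, Ipo5 and Nup62 held whichever library was left out.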

How the results depend on the processing

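Counts of called members moved by more than 1.5 times as follows. For Compound 10 in unstimulated cells (2 called), library totals and DESeq2 each gave 4, the contrast's groups alone 0, the index-run block 6 (2 higher, 4 lower), and leaving out the third run 1. For stimulation with Compound 10 (12 called), library totals gave 27 (1 higher, 26 lower) and the run block 20; upper-quartile scaling gave 5 higher and 4 lower, against 4 and 8. For stimulation under vehicle (14 higher, 9 lower), library totals moved both counts, as given above for that comparison. The replicate block gave 14 lower, the run block 15 and leaving out the third run 17. For the interaction (7 called), the run block gave 16 and DESeq2 12. The shares of all genes called in the alternative fits of this section are not given, so these counts cannot be set against a background. With the replicate number as a block (replicate block) the counts were 16, 7, 28, 15 and 8 for Compound 10 in stimulated and in unstimulated cells, stimulation under vehicle and with Compound 10, and the interaction. Deviations from the group mean correlated at r between -0.28 and 0.33 for same-numbered libraries, and at -0.05 to 0.46 for libraries of 1 index run. In a group of 2 libraries the deviations mirror each other, so these values cannot decide whether the numbers pair libraries. Leaving out each library gave 10 to 16, 0 to 5, 17 to 27, 4 to 16 and 3 to 9 calls in the same order. A change of sign was counted as a reversal only where the main or the alternative fit gave a call. Among the named genes and alternatives run, such reversals occurred only for stimulation under vehicle. With library totals they were Nup43 (-0.14), Nup50 (-0.041), Nup54 (-0.12), Xpot (-0.10) and Cse1l (-0.063). With counts from length-scaled TPM Ipo9 (0.18) reversed. The cause was not tested. Adding the counts of the gene sharing most sequence lost no call of a named gene. The contrast's groups alone cannot give an interaction.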
